A study of Rattus norvegicus with 18 samples.

Results

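The genes described here are 77 genes with names of transcription factors, co-regulators, Mediator subunits and chromatin regulators, measured in the rat L5 dorsal root ganglion (DRG), the cluster of sensory nerve cell bodies and their supporting cells that serves the L5 spinal nerve. They were taken by name: every gene of the 50 M table whose symbol starts with one of a fixed set of family stems (Zfp, Znf, Zbtb, Sox, Klf, Fox, Pou, Runx, Stat, Smad, Tcf, Creb, Atf, Nr, Nfi, Ets, Etv, Kdm, Kmt, Hdac, Smarc, Chd, Brd, Ncor, Ncoa and Med, some only where a digit follows) and which had reads in at least 3 of 6 libraries. Symbols were known for 1994 of the 26172 genes in that table, so the 77 are the members of these families among those 1994 genes and not all such genes of the rat. All 77 passed the filter, and the lowest read count of any of them in any 50 M library was 90. The samples came from Wistar rats. The SNT group had the L5 spinal nerve cut (spinal nerve transection, a model of neuropathic pain) and its DRG were taken at 7 days, and the naive group was not operated on. There were 3 SNT and 3 naive libraries, each made from the pooled ganglia of several animals, and each library was sequenced at nominal depths of 17, 25 and 50 M reads. The comparison asks which of these regulators change in RNA level after the peripheral axon is cut.

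Sequence-specific transcription factors bind short DNA motifs and recruit co-activators or co-repressors. Mediator carries the signal from bound factors to RNA polymerase II, remodelling complexes of the SWI/SNF and CHD families move nucleosomes with energy from ATP, and histone readers, acetylases, deacetylases and demethylases read or rewrite marks on the histone tails. In sensory neurons such factors are known to set neuronal subtype during development and to take part in the growth programme started by axon injury, while in Schwann and satellite glial cells others keep glial identity.

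Reads assigned to genes ranged from 15000789 to 19031166 per library at 50 M, from 8319112 to 9951906 at 25 M and from 4968448 to 6154543 at 17 M. All levels are normalised read counts, the count of reads on a gene's exons divided by the size factor of its library, and "differentially expressed" (DE) means a Benjamini-Hochberg adjusted p below 0.1 in a limma fit over all tested genes. Among the SNT libraries, replicate 1 stood closest to the naive group. Of the 25 members that were DE with a log2 fold change of at least 0.5 in either direction, it was the least changed SNT library in all 25. Over all genes so defined, it was the least changed in 85.7% of 7450. In the same libraries the summed level of 16 sensory neuron markers was 394668 to 454088 in naive ganglia and 124137 to 247691 after SNT, the highest SNT value being that of replicate 1. None of these 16 was higher, 13 were lower and 3 were not DE. The sum of 8 Schwann and satellite glial markers overlapped between the groups (308969.8 to 560551 against 375381 to 473649.8), with 3 higher and 5 not DE. The sum of 9 myeloid markers went from 14174 to 14540.2 up to 27549.8 to 51788 (7 higher, 1 lower, 1 not DE), and that of 8 fibroblast markers from 58844 to 85118 up to 119586 to 180440.0 (7 higher, 1 lower). No marker of the 4 lists was at 0 in any library. In whole ganglia fewer cells of a type and less RNA per cell cannot be told apart, and the part of these cell type markers in the changes described below was not tested.

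At 50 M, 62 of the 77 genes were DE, 45 higher and 17 lower after SNT, and 15 were not DE. The libraries of the groups did not overlap for 64. Over all 17930 tested genes 58.5% were DE, 29.2% higher and 29.4% lower, and 62.1% did not overlap. Over the 1994 genes with a symbol these shares were 71.4% DE, 35.2% higher, 36.2% lower and 75.8% not overlapping. The 77 genes had 80.5% DE, 58.4% higher and 22.1% lower. Their median log2 fold change was 0.28, beside 0.01 over all tested genes. Most changes were small: the log2 fold changes ran from -1.75 to 1.24. Etv1, Zfp827, Nr2f2 and Klf6 were the 4 genes that moved by more than 1 in either direction. These 4 are 5.19% of the members, beside 13.1% of genes with a symbol and 23.2% of all tested genes. The median absolute log2 fold change was 0.40 in members, 0.41 in genes with a symbol and 0.49 in all tested genes. The split between higher and lower depends on the scaling. With libraries scaled to equal totals instead of the authors' size factors, the median of all tested genes rose by 0.16 on the log2 scale, 85.2% instead of 72.6% of the called members were higher (62.5% instead of 49.8% of all called genes), and 9 instead of 17 members were lower. Every one of the 62 genes kept its sign under that scaling. Without SNT replicate 1, 63 members were DE, 61 of the 62 among them.

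**Figure D1:**
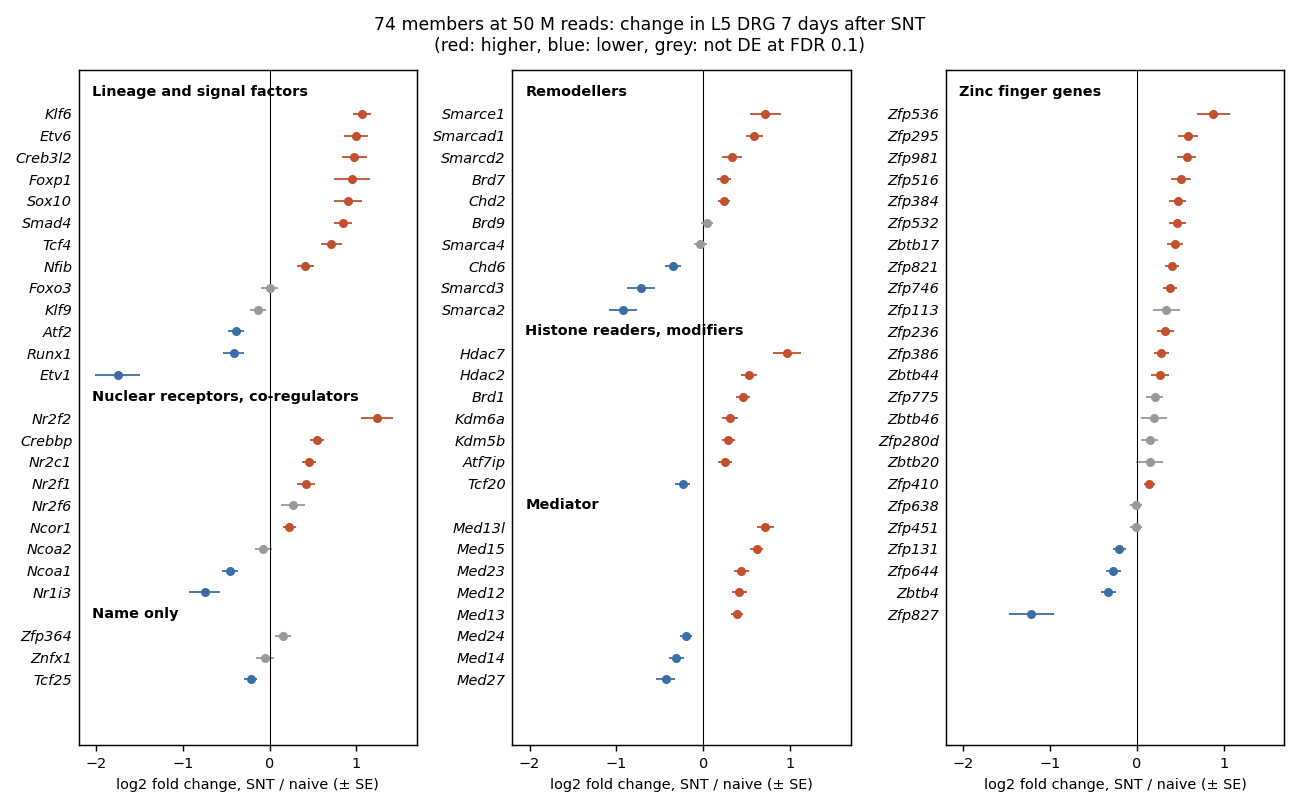
Log2 fold change of SNT over naive at 50 M for 74 of the 77 genes, in role groups, with its standard error (bars, 3 libraries a group). Points in red were higher and in blue lower at an adjusted p below 0.1, and grey points were not DE. Etv1 lies farthest to the left at -1.75 and Nr2f2 farthest to the right at 1.24.

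Among 14 lineage and signal-dependent factors, 12 were DE, 9 higher and 3 lower, with a median log2 fold change of 0.58. The share DE was 85.7%, beside 71.4% of genes with a symbol. The ETS-family factor Etv1, which is needed for the central connections of muscle afferents, was the most reduced of all 77 genes. Its normalised read counts were 9379, 9084 and 8111 in naive replicates 1 to 3 and 4129, 2114 and 2076 in SNT replicates 1 to 3. The groups did not overlap, and SNT replicate 1 kept the most of the transcript (log2 fold change -1.75 ± 0.26 (SE), limma adjusted p = 0.0041). The mean after SNT was 0.313 of the naive mean, and 0.236 without SNT replicate 1. The summed sensory neuron markers were at 247691, 124137 and 150142 in the same SNT replicates, and their part in this fall was not tested. Runx1, a Runt-domain factor known for nociceptor identity, was at 329, 345 and 296 in naive and 267, 212 and 251 in SNT libraries (log2 fold change -0.41 ± 0.12 (SE), limma adjusted p = 0.0295). Atf2, a bZIP factor that stress-activated kinases phosphorylate, fell from 895, 905 and 798 to 678, 612 and 698 (log2 fold change -0.39 ± 0.09 (SE), limma adjusted p = 0.0121). Both falls were several times smaller than that of Etv1 on the log2 scale. With equal totals Runx1 was no longer DE (adjusted p = 0.11 in limma), whereas Etv1 and Atf2 were. At the lower depths Runx1 was not DE at 17 M (log2 fold change -0.25, limma adjusted p = 0.323) and Atf2 not at 25 M (-0.26, adjusted p = 0.101), each with overlapping groups there, while Etv1 was DE at both.

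The 9 factors that rose came from several families. Klf6, a Krüppel-like zinc finger factor linked to axon growth, went from 566, 574 and 553 in the naive libraries to 1019, 1246 and 1298 in the SNT libraries (log2 fold change 1.06 ± 0.10 (SE), limma adjusted p = 0.00185). Creb3l2, a bZIP factor held in the endoplasmic reticulum membrane until it is cleaved, went from 692, 593 and 742 to 1105, 1566 and 1344 (log2 fold change 0.98 ± 0.15 (SE), limma adjusted p = 0.0041). For both, all 3 SNT libraries lay above all naive ones, with replicate 1 the lowest of the 3. Etv6, an ETS-family repressor, was at 104, 101 and 94.9 in naive and 175, 226 and 203 in SNT libraries (log2 fold change 0.99 ± 0.14 (SE), limma adjusted p = 0.00369), so the 2 ETS-family members moved in opposite directions. Foxp1, a forkhead repressor, rose from 175, 121 and 144 to 224, 354 and 279 (log2 fold change 0.95 ± 0.21 (SE), limma adjusted p = 0.0107). The myeloid and fibroblast marker sums were likewise lowest in replicate 1 among the SNT libraries, at 27549.8, 51788 and 34041 and at 119586, 180440.0 and 178329.5 in SNT replicates 1 to 3.

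Sox10, the factor that specifies and maintains Schwann and satellite glia, was at 2947, 2572 and 2985 in naive libraries and 4253, 6582 and 5258 in SNT libraries (log2 fold change 0.90 ± 0.16 (SE), limma adjusted p = 0.00614). The SNT mean was 1.89 times the naive mean, and 2.09 times without SNT replicate 1, while the summed level of the 8 glial markers overlapped between the groups. Smad4, the common partner of the Smads that carry TGF-beta and BMP signals, went from 541, 597 and 586 to 896, 1146 and 1073 (log2 fold change 0.85 ± 0.11 (SE), limma adjusted p = 0.00304), and the naive and SNT values were separated by a gap wider than the range of either group. Tcf4, a basic helix-loop-helix E protein, rose from 204, 211 and 245 to 326, 405 and 354 (log2 fold change 0.71 ± 0.13 (SE), limma adjusted p = 0.00582). Nfib, a nuclear factor I protein, rose from 342, 328 and 343 to 404, 475 and 475 (log2 fold change 0.41 ± 0.10 (SE), limma adjusted p = 0.0127). Foxo3, a forkhead factor restrained by insulin signalling, had a log2 fold change of -0.00086 (adjusted p = 0.995 in limma), and Klf9, a hormone-induced Krüppel-like factor, one of -0.13 (adjusted p = 0.285). In both the naive and SNT libraries overlapped, and without SNT replicate 1 Klf9 was DE at a log2 fold change of -0.21 (adjusted p = 0.0503 in limma).

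**Figure D2:**
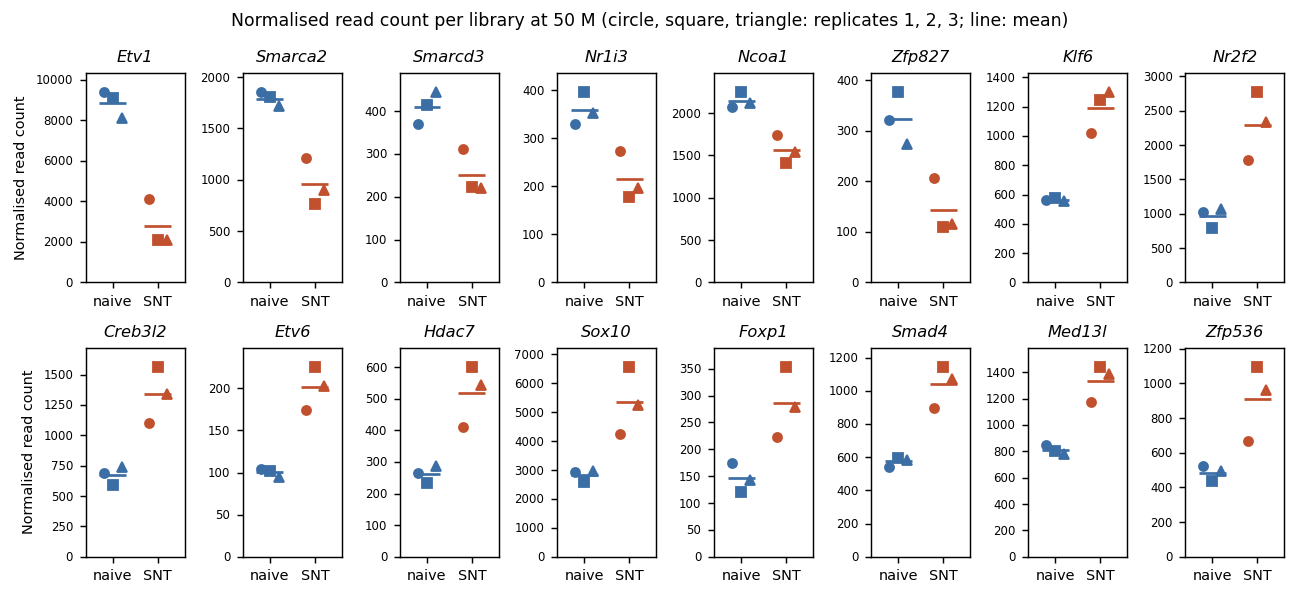
Normalised read count of Etv1, Smarca2, Smarcd3, Nr1i3, Ncoa1, Zfp827, Klf6, Nr2f2, Creb3l2, Etv6, Hdac7, Sox10, Foxp1, Smad4, Med13l and Zfp536 in each 50 M library, naive in blue and SNT in red, with a line at each group mean and the vertical axis starting at 0. In these 16 panels the groups are apart, and the circle of SNT replicate 1 is the SNT point nearest to the naive points.

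The sequence before the start sites of 4 of these strongly changed genes is shown because the factors described here bind DNA of this kind. RefSeq start-site windows (build GRCr8, a later assembly than the one used for the reads) were matched by symbol for 58 of the 77 genes, and the 250 bases before the annotated start were searched on both strands for 4 short motifs. These were the GC box GGGCGG bound by Krüppel-like and Sp factors, the CRE half-site TGACG bound by CREB and ATF factors, the ETS core CCGGAA, and the nuclear receptor half-site AGGTCA. Capitals mark the matches, reverse-strand matches included, and the Etv1 run of capitals holds 2 GC boxes that share 1 base. Klf6 and Creb3l2 rose, and Etv1 and the remodeller ATPase Smarca2 fell.
Klf6 (chr17:69458479-69458728, minus strand): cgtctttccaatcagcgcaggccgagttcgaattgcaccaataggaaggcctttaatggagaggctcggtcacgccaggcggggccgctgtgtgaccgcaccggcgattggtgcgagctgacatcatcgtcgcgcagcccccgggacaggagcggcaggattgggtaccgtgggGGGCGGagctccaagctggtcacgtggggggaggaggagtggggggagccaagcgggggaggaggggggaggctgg
Creb3l2 (chr4:66990833-66991082, minus strand): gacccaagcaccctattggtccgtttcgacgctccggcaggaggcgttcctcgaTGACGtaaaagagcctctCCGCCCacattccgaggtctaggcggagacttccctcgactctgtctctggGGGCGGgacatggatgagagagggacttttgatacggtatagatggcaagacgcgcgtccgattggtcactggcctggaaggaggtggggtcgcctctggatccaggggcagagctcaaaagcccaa
Etv1 (chr6:61317179-61317428, plus strand): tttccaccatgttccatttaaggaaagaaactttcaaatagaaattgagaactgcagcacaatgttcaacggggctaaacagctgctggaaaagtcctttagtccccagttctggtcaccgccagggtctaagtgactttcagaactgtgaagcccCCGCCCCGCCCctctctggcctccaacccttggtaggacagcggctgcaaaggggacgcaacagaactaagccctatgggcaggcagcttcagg
Smarca2 (chr1:233617121-233617370, plus strand): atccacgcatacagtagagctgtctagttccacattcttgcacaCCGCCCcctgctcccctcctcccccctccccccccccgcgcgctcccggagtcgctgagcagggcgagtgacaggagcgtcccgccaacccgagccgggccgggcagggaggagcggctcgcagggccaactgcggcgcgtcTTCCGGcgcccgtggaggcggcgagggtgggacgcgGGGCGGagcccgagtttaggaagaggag
Each of the 4 windows held a GC box, Creb3l2 alone held a CRE half-site and Smarca2 alone an ETS core. A GC box was present in 41 of 58 member windows (70.7%), a share close to the 66.7% of 1498 windows of genes with a symbol. Of all 33469 windows in the table, 30.5% held a GC box. Windows of members and of genes with a symbol were the first listed for their symbol. Values over all windows count every window and are not directly comparable with these. The median GC content of the windows was 64.2% for the members, 63.2% for genes with a symbol and 51.2% for all windows. The CRE half-site was in 17.2% of member windows (29.6% of genes with a symbol, 18.2% of all), the ETS core in 24.1% (22.2% and 12.6%) and the nuclear receptor half-site in 5.17% (8.81% and 14.1%). Of the windows of risen members 25 of 33 held a GC box, and of those of fallen members 9 of 15. These matches describe the letters only, and windows for Nr2f2, Sox10 and 17 other members were not used here.

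Of 10 nuclear receptors and their co-regulators, 6 were higher, 2 lower and 2 not DE, and the median log2 fold change was 0.35. The share DE was 80%, beside 71.4% of genes with a symbol. Nr2f2 (COUP-TFII), an orphan receptor that mostly represses, showed the largest rise of all 77 genes, from 1026, 799 and 1072 in naive libraries to 1779.7, 2769.8 and 2329 in SNT libraries (log2 fold change 1.24 ± 0.18 (SE), limma adjusted p = 0.00408). The SNT mean was 2.37 times the naive mean, 2.64 times without SNT replicate 1, and no SNT library overlapped the naive range. Its close relative Nr2f1 (COUP-TFI) rose from 923, 900.4 and 907 to 1049, 1314 and 1312 (log2 fold change 0.42 ± 0.10 (SE), limma adjusted p = 0.015), and the third relative, Nr2f6, was at 555, 572 and 568 in naive and 566, 828 and 679.6 in SNT libraries and was not DE (limma adjusted p = 0.142). Without SNT replicate 1, Nr2f6 was DE at a log2 fold change of 0.41 (adjusted p = 0.011 in limma). Nr2c1, another orphan receptor, was at 372, 383 and 383 in naive and 494, 532 and 535 in SNT libraries with log2 fold change 0.45. Nr1i3, the xenobiotic receptor CAR best known from liver, went the other way, from 329.5, 396 and 353 to 274, 178 and 197 (log2 fold change -0.75 ± 0.18 (SE), limma adjusted p = 0.0129).

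The p160 co-activator Ncoa1 fell from 2074, 2246 and 2116 to 1736, 1415 and 1540.4 (log2 fold change -0.46 ± 0.09 (SE), limma adjusted p = 0.00789), while its relative Ncoa2 was at 1010.3, 1063 and 874 in naive and 989.9, 932 and 871 in SNT libraries and was not DE (limma adjusted p = 0.559). The co-repressor Ncor1, which brings histone deacetylase to unliganded receptors, rose from 2383, 2346 and 2255 to 2568, 2868 and 2750.4 (log2 fold change 0.23). Crebbp, the histone acetylase CBP that many factors share, rose from 767, 741 and 743 to 993, 1176 and 1124 (log2 fold change 0.55 ± 0.08 (SE), limma adjusted p = 0.00425). In Ncoa1, Ncor1 and Crebbp the naive and SNT libraries did not overlap, but the call was lost when 1 library was left out for Ncor1 without naive 3 or SNT 3 (0.109 to 0.113), the values being limma adjusted p-values.

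All 8 Mediator subunits were DE, 5 higher and 3 lower, with no overlap between groups in any of the 8 and a median log2 fold change of 0.40. Beside them, 71.4% of genes with a symbol were DE and 75.8% did not overlap. Over all tested genes these shares were 58.5% and 62.1%. The 3 subunits of the kinase module that the name rule took, from a detachable part that tunes Mediator, all rose: Med12 from 1111, 1101 and 1049.6 to 1325, 1485 and 1557, Med13 from 1194, 1141 and 1182 to 1454, 1623 and 1541 and Med13l from 846, 804 and 778 to 1176, 1444 and 1387. Their log2 fold changes were 0.42, 0.39 and 0.72. Med15, a tail subunit that activators contact, was at 1235, 1174 and 1130.1 in naive and 1681, 1867 and 1883 in SNT libraries (log2 fold change 0.62 ± 0.08 (SE), limma adjusted p = 0.00292). Med23, also contacted by activators, rose from 713, 661 and 774 to 928, 1022 and 961 (log2 fold change 0.44). The subunits that fell were Med27, from 516, 596 and 626 to 451, 452 and 382 (log2 fold change -0.43 ± 0.11 (SE), limma adjusted p = 0.0183), the backbone subunit Med14, from 995, 1015 and 911 to 857, 745 and 755 (log2 fold change -0.31 ± 0.09 (SE), limma adjusted p = 0.0238), and Med24, from 1073, 1105 and 994 to 958, 895 and 912 (log2 fold change -0.20, limma adjusted p = 0.0611). With equal totals Med14 (-0.15) and Med24 (-0.04) were no longer DE and Med27 (-0.27) still was. The call of Med24 was also lost without naive 1, naive 2, SNT 2 or SNT 3 (limma adjusted p = 0.125 to 0.179).

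Of 10 chromatin remodelling genes, 5 were higher, 3 lower and 2 not DE, and the median log2 fold change was 0.14. The share DE was 80%, beside 71.4% of genes with a symbol. Smarca2 (BRM), 1 of the 2 alternative ATPases of SWI/SNF complexes, was reduced from 1852, 1802 and 1716 in naive libraries to 1209, 763 and 904 in SNT libraries (log2 fold change -0.93 ± 0.16 (SE), limma adjusted p = 0.00573). The alternative ATPase, Smarca4 (BRG1), was at 3035, 3201 and 2888 in naive and 3138, 2833 and 2951 in SNT libraries, overlapped between the groups and was not DE (log2 fold change -0.03 ± 0.08 SE, limma adjusted p = 0.748). A similar contrast was seen in the BAF60 subunits, of which a complex carries 1. Smarcd3 (BAF60C) was at 369, 415 and 444 in naive and 312, 222 and 221 in SNT libraries (log2 fold change -0.72 ± 0.16 (SE), limma adjusted p = 0.0111), and Smarcd2 (BAF60B) at 636, 679 and 731 in naive and 772, 998 and 826 in SNT libraries (log2 fold change 0.34 ± 0.11 (SE), limma adjusted p = 0.046). For Smarca2 and Smarcd3 the SNT means were 0.535 and 0.614 of the naive means, and 0.466 and 0.54 without SNT replicate 1.

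The core subunit Smarce1 (BAF57) rose from 99.9, 90.4 and 96.8 to 129.5, 199.9 and 152 (log2 fold change 0.72 ± 0.18 (SE), limma adjusted p = 0.0173). Smarcad1, an ATPase that works outside SWI/SNF, was at 855, 781 and 879 in naive and 1128, 1381 and 1276 in SNT libraries (log2 fold change 0.59), without overlap. The bromodomain subunits Brd7 and Brd9 belong to different SWI/SNF assemblies: Brd7 was at 735, 732 and 782 in naive and 830.0, 939.6 and 890.1 in SNT libraries (log2 fold change 0.24, limma adjusted p = 0.0384), and Brd9 at 1038, 1003 and 978 in naive and 1015, 1001 and 1087 in SNT libraries (0.04, adjusted p = 0.66). The chromodomain helicases moved apart: Chd6 fell from 3706, 3733 and 3336 to 3101, 2634 and 2724 (log2 fold change -0.35 ± 0.09 (SE), limma adjusted p = 0.0186), and Chd2 was at 1036, 1074 and 1089 in naive and 1213, 1223 and 1336 in SNT libraries (log2 fold change 0.24 ± 0.07 (SE), limma adjusted p = 0.0301). Chd2 was DE at 50 M but not at 25 M or 17 M. At 17 M the calls of Brd7 (log2 fold change 0.18, limma adjusted p = 0.176, groups overlapping), Smarcd2 (0.26, adjusted p = 0.107) and Smarce1 (0.54, adjusted p = 0.102) were also lost. Leaving out 1 library ended the call for Smarcd2 without naive 1 or naive 2 (0.114 to 0.151), Brd7 without naive 1, naive 2 or SNT 3 (0.109 to 0.128) and Chd2 without naive 1 or SNT 3 (0.109 to 0.116), each with its limma adjusted p.

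All 8 histone readers, modifiers and chromatin co-factors were DE, 7 higher and 1 lower, with a median log2 fold change of 0.30. Beside them, 71.4% of genes with a symbol and 58.5% of all tested genes were DE. At 17 M the share DE in this group was 62.5%, beside 65.4% of genes with a symbol. The largest rise was that of Hdac7, a class IIa deacetylase that shuttles between nucleus and cytoplasm, from 266, 234 and 288 to 410.1, 602 and 543 (log2 fold change 0.96 ± 0.16 (SE), limma adjusted p = 0.00517). The class I deacetylase Hdac2 also rose, from 1077, 1102 and 1203 to 1464, 1692 and 1724 (log2 fold change 0.53 ± 0.09 (SE), limma adjusted p = 0.00548). In both genes each SNT library lay above every naive library. Brd1, a bromodomain scaffold of histone acetylase complexes, was at 889.6, 759 and 833 in naive and 1090.0, 1176 and 1134 in SNT libraries (log2 fold change 0.46). The demethylases Kdm5b, which acts on an active promoter mark, and Kdm6a, which acts on the Polycomb mark, rose from 1318, 1255 and 1220.2 to 1448, 1589 and 1599.8 (log2 fold change 0.29) and from 463, 483 and 491 to 535, 654 and 597 (0.31). A smaller rise was that of Atf7ip, a partner of a silencing methylase (0.25, limma adjusted p = 0.044). The nuclear co-regulator Tcf20 was the member that fell, from 1539, 1545 and 1501 to 1440.3, 1187 and 1278 (log2 fold change -0.24 ± 0.09 (SE), limma adjusted p = 0.0583), and it was not DE with equal totals (log2 fold change -0.07). At 17 M Atf7ip (log2 fold change 0.05, limma adjusted p = 0.647) and Kdm6a (0.17, adjusted p = 0.407) were not DE and their groups overlapped. With 1 library left out, the limma adjusted p was above 0.1 for Atf7ip without naive 1, naive 3 or SNT 2 (0.101 to 0.136), Kdm6a without naive 1 (0.116) and Tcf20 without naive 1, naive 2, naive 3, SNT 2 or SNT 3 (0.114 to 0.155).

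Zinc finger genes with Zfp or Zbtb symbols, mostly little-studied DNA-binding proteins, formed the largest group. Of 24, 13 were higher, 4 lower and 7 not DE, and their median log2 fold change was 0.28. The share DE was 70.8%, beside 71.4% of genes with a symbol. Zfp827, a C2H2 protein known to bring a repressive remodelling complex to telomeres, was reduced from 321, 376 and 274 to 207, 109 and 116 (log2 fold change -1.21 ± 0.26 (SE), limma adjusted p = 0.00999), and the naive and SNT libraries were apart at 50 M but not at every depth. The next falls were far smaller: Zbtb4, a reader of methylated DNA, had a log2 fold change of -0.33 (limma adjusted p = 0.0202), Zfp644 one of -0.27 (0.0412) and Zfp131 one of -0.20 (0.0583). Of these 4 only Zfp827 was still DE with equal totals, and with 1 library left out the limma adjusted p was above 0.1 for Zfp644 without naive 1, naive 2, SNT 2 or SNT 3 (0.1003 to 0.14) and Zfp131 without naive 1, naive 3, SNT 2 or SNT 3 (0.108 to 0.177). Zfp536, a repressor of neuronal differentiation, had the largest rise of the group, from 521, 434 and 496 to 668, 1097 and 961 (log2 fold change 0.88 ± 0.19 (SE), limma adjusted p = 0.00919). Zfp295 was at 330.5, 295 and 312 in naive and 419, 535 and 464 in SNT libraries (log2 fold change 0.59 ± 0.11 (SE), limma adjusted p = 0.00723), and Zfp981 at 236, 231 and 243 in naive and 309, 368 and 386 in SNT libraries (log2 fold change 0.57 ± 0.11 (SE), limma adjusted p = 0.00734). In all 3 the SNT libraries lay above the naive ones, with replicate 1 the lowest SNT library.

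The other risen zinc finger genes, Zfp516, Zfp384, Zfp532, Zbtb17 (MIZ1, a partner of Myc), Zfp821, Zfp746, Zfp236, Zfp386, Zbtb44 and Zfp410, had log2 fold changes from 0.14 (Zfp410) to 0.51 (Zfp516). Those not DE at 50 M were Zfp113, Zfp775, Zbtb46, Zfp280d, Zbtb20, Zfp638 and Zfp451, with log2 fold changes from -0.01 to 0.34. Zfp113 and Zfp775 missed the threshold (limma adjusted p = 0.109 and 0.127) although their naive and SNT libraries did not overlap, and Zfp113 was DE at 25 M, at 17 M and, at 50 M, without naive replicate 2 (adjusted p = 0.064). Among the risen ones with 1 library left out the limma adjusted p was above 0.1 for Zbtb44 without naive 1, naive 2, naive 3, SNT 2 or SNT 3 (0.114 to 0.173), Zfp386 without naive 2 or SNT 3 (0.114 to 0.121) and Zfp410 without naive 1, naive 2, naive 3, SNT 1, SNT 2 or SNT 3 (0.11 to 0.204). A further 3 genes carry names that match the stems without being known DNA-binding factors: Tcf25, which fell from 5618, 5852 and 5388 to 5090.0, 4571 and 4834 (log2 fold change -0.22, limma adjusted p = 0.055), the RNA helicase Znfx1 (-0.06, adjusted p = 0.678) and the ubiquitin ligase Zfp364 (0.15, adjusted p = 0.203). Znfx1 and Zfp364 were not DE at 50 M, though Zfp364 was without SNT replicate 2 (limma adjusted p = 0.084), and the call of Tcf25 was lost without naive 1, naive 2, SNT 2 or SNT 3 (0.12 to 0.163).

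A ratio of 2 genes within a library does not depend on the size factor, so related members were also compared as log2 ratios per library in 9 pairs. Each change in a ratio equals the difference of the log2 fold changes of its 2 genes. It therefore restates those values from the same libraries and is no separate support for them. Gene length was not corrected, so only the change in a ratio is read here and not its level. The ratio differed without overlap between naive and SNT libraries in all 9 pairs, and in each the exact two-sided permutation test gave p = 0.1, the smallest that 3 against 3 libraries allow. Single genes did not overlap in 62.1% of all tested genes and in 75.8% of genes with a symbol. The share over other pairs of genes was not computed, so the 9 pairs cannot be set against a background. The Smarca2 to Smarca4 log2 ratio was -0.71, -0.83 and -0.75 in naive replicates and -1.38, -1.89 and -1.71 in SNT replicates, a change of -0.89. For Smarcd3 to Smarcd2 it was -0.78, -0.71 and -0.72 against -1.30, -2.17 and -1.90, a change of -1.05. Both SWI/SNF ratios thus fell in whole-ganglion RNA, least so in SNT replicate 1. The subunit make-up of the complexes was not measured.

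For Nr2f2 to Nr2f1 the log2 ratio was 0.15, -0.17 and 0.24 in naive and 0.76, 1.07 and 0.83 in SNT libraries, a change of 0.81. The Klf6 to Klf9 ratio went from -0.80, -0.65 and -0.70 to 0.11, 0.66 and 0.66, a change of 1.19. Largest was the change of Etv1 to Etv6, -2.74, from 6.48, 6.47 and 6.40 to 4.56, 3.22 and 3.35. The remaining changes were -0.39 for Ncoa1 to Ncoa2, -0.33 for Med13 to Med13l, 0.44 for Hdac7 to Hdac2 and 0.20 for Brd7 to Brd9. Of these, Brd7 to Brd9 overlapped between the groups at 17 M (p = 0.3 in the exact two-sided permutation test), and no other pair overlapped at any depth.

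**Figure D3:**
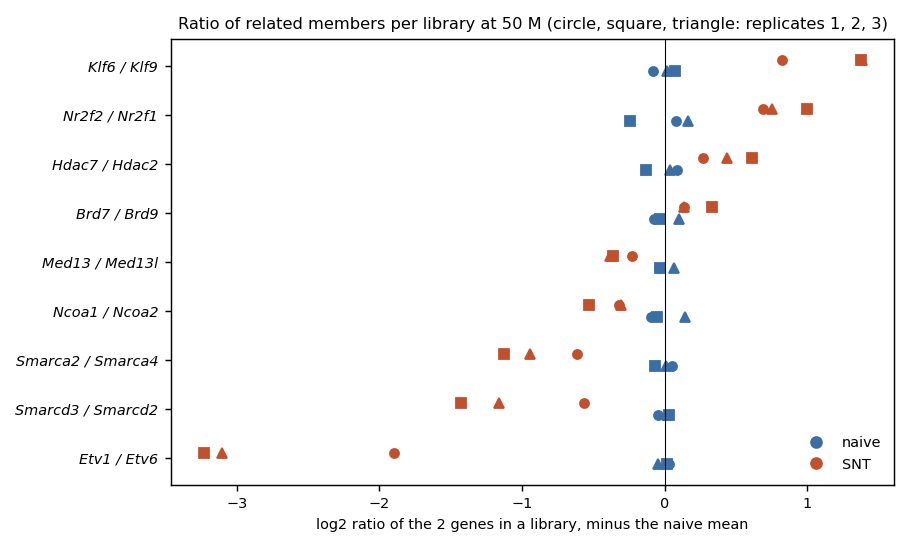
Log2 ratio of 2 related genes in each 50 M library, minus the mean of the naive libraries for that pair, with naive libraries in blue and SNT libraries in red. The horizontal axis is in log2 units. Changes run from -2.74 for Etv1 to Etv6 up to 1.19 for Klf6 to Klf9, and in each pair the SNT points lie to one side of the naive points.

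The same libraries sequenced less deeply gave fewer calls. At 25 M, 56 of the 77 genes were DE (43 higher, 13 lower), beside 55.9% of all tested genes (27.7% higher, 28.3% lower) and 67.9% of genes with a symbol. At 17 M, 54 were DE (39 higher and 15 lower, with 8 lower without naive replicate 2 and 8 without SNT replicate 3), beside 52.3% of all tested genes (26.0% higher, 26.4% lower) and 65.4% of genes with a symbol. The runs at 3 depths are repeats of 1 set of libraries and not separate animals. Of the 77 genes, 48 were DE at all 3 depths, 16 at 1 or 2 and 13 at none, and 69 had the same sign at all 3. The 48 are 62.3% of the members, beside 46.2% of the 16620 genes tested at all 3 depths and 60.9% of those with a symbol. For 46 genes (59.7%) the call held at all 3 depths with no overlap between groups at any, beside 43.2% and 58.4%, so both shares were close to those of genes with a symbol. Of the 62 members DE at 50 M, 14 were not DE at 25 M or at 17 M. Besides those given above, these included Tcf25 at both depths (limma adjusted p = 0.154 and 0.234), and Zfp131 (0.142), Med24 (0.126) and Zfp410 (0.951) at 25 M. The median absolute difference between the 17 M and 50 M log2 fold changes was 0.06, and the largest difference between 2 depths was 0.42. That largest difference belonged to Zbtb44, whose log2 fold change was 0.27 at 50 M (limma adjusted p = 0.0659), -0.06 at 25 M (not DE) and 0.36 at 17 M. Zfp827 had log2 fold changes of -1.21, -1.17 and -0.83 at 50, 25 and 17 M, and Med27 of -0.43, -0.51 and -0.78.

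**Figure D4:**
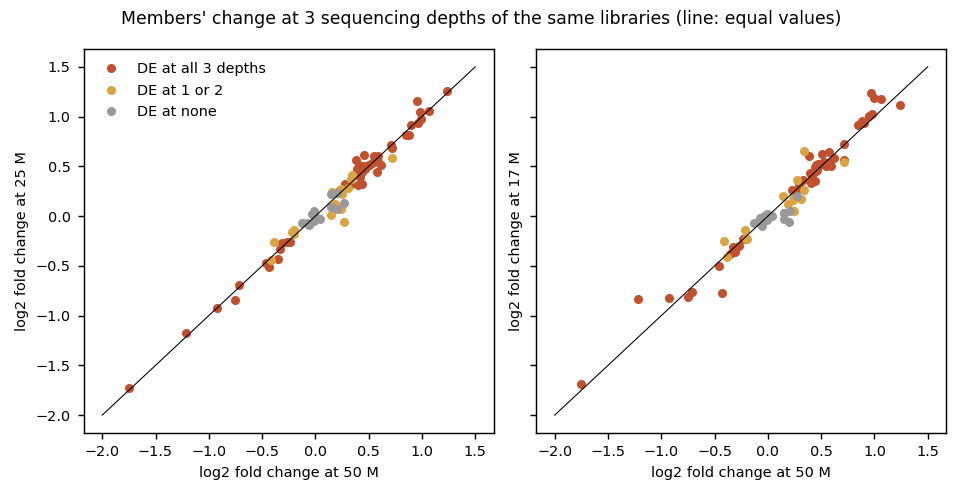
Log2 fold change of the 77 genes at 25 M (left) and 17 M (right) against that at 50 M, coloured by the number of depths at which the gene was DE. The line marks equal values. The median absolute distance between 17 M and 50 M is 0.06, and Etv1 lies at the lower left in both panels.

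Outside the name rule, 39 other sequence-specific factors and 52 other chromatin regulators with a symbol were examined in the same fit. Of the 39 factors, 23 were higher, 6 lower and 10 not DE, with a median log2 fold change of 0.37, and 11 moved by more than 1. The share DE was 74.4%, beside 71.4% of genes with a symbol and 58.5% of all tested genes. The share that moved by more than 1 was 28.2%, beside 13.1% of genes with a symbol and 23.2% of all tested genes. The largest rise in that list was that of Tbx18, a T-box factor of mesenchymal cells, from 190.0, 129.6 and 233 in naive to 644, 855 and 1108 in SNT libraries (log2 fold change 2.24), and the largest fall that of Myt1l, a factor of neuronal identity, from 850.0, 952 and 777 in naive to 444, 143 and 156 in SNT libraries (log2 fold change -1.99). Of the 52 chromatin regulators, 27 were higher, 6 lower and 19 not DE, with a median of 0.22. Among these 52, 63.5% were DE and 67.3% did not overlap, below the 71.4% and 75.8% of genes with a symbol. Over all tested genes the shares were 58.5% and 62.1%. Ezh2, the methylase of the Polycomb repressive complex, rose the most, from 253, 207 and 281 in naive to 745, 986 and 868 in SNT libraries (log2 fold change 1.81). The list of chromatin regulators also held further SWI/SNF subunits, not all of which are given here: Arid1a went from 2261, 2237 and 2150.0 in naive to 3219, 3885 and 3556 in SNT libraries (log2 fold change 0.68), Ss18 from 988, 885 and 1104 in naive to 1422, 2152 and 1971 in SNT libraries (log2 fold change 0.88), and Arid1b, which was not DE, had values from 1937, 1920.4 and 1823 in naive to 1664, 1749.9 and 1786 in SNT libraries (log2 fold change -0.13). These 6 genes outside the 77 were chosen for naming after their values were seen.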

How the data were processed

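RNA-seq was analysed in 6 pools of Wistar rat L5 DRG (3 naive, 3 at 7 days after SNT), each library sequenced at 17, 25 and 50 M reads. The authors aligned reads of poly(A) RNA to Rn5 with Bowtie, discarded ambiguously mapping reads, counted reads per Ensembl gene and divided them by DESeq size factors. The deposited values are thus a signal, the normalised read count, and all of them were whole reads times 1 step per library (100% whole), from which read counts were recovered. Tool versions are not given in the sources used here. The kit does not mark strand, so overlapping genes on opposite strands cannot be told apart.

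Symbols came from the part of a supplementary table of the study that was available here, which named 1994 genes. Genes beyond that part were treated as having no symbol. The genes of the table had passed a minimum the authors set on intronic reads and, per their methods, overlapped no other gene. The fold changes and p-values in the table are the authors' own comparisons and were not used. Genes with reads in at least 3 of 6 libraries were tested (17930, 17226 and 16820 at 50, 25 and 17 M). The test was limma 3.58.1 (R 4.3.3), fitted to log2(normalised count + 1) with empirical Bayes and a trend, two-sided, Benjamini-Hochberg over all tested genes, FDR 0.1. Fold changes are on that log2 scale. The fit was tested on simulated counts with few changed genes and the same dispersion in every gene and library, unlike these data. It does not show how reliable the calls in these data are. Ratios of related genes were compared with exact permutation tests. Alternatives were edgeR 4.0.16 and DESeq2 1.42.0 on the recovered reads, pseudocounts of 0.5 and 5, other filters, equal totals, FDR 0.05, a prior without a trend, a replicate block, summed runs and leaving out each library. Replicates of a group differed by more than counting noise.

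Values of 3 members, which the counts include, are not reported here. Members and lists were chosen with earlier results of these data known. The rule for named genes took the 8 largest rises and 8 largest falls among members DE without overlap at all 3 depths, the paralog pairs, all members other than zinc finger genes, the 3 largest rises and 3 largest falls of the zinc finger genes, and members not DE by symbol. Library replicates are pools of different animals.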

Additional observations from a re-analysis of the deposited data

How the results depend on the processing

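At 50 M between 49 (without naive replicate 1) and 63 members were DE under the alternatives, 62 with edgeR, 61 with DESeq2 and 55 at FDR 0.05, and no member that was DE changed sign under any alternative of the 50 M fit. At 25 M the range was 48 to 60 and at 17 M 39 to 56. With equal totals 54 of the 62 calls were kept, 8 were lost, all of lower members (Med14, Med24, Runx1, Tcf20, Tcf25, Zbtb4, Zfp131, Zfp644), and 7 were gained, all higher, and the lower members numbered 9 at 50 M, 8 at 25 M and 8 at 17 M, against 17, 13 and 15. At 17 M the lower members numbered 8 to 16 when 1 library was left out, 8 without naive replicate 2 and 8 without SNT replicate 3, and at 50 M 12 to 18. The cause of the losses at 17 M was not tested. Replicate numbers did not pair the libraries (correlations of same-numbered deviations 0.04, -0.17 and 0.08), and with a replicate block 55 members were DE at 50 M, 50 at 25 M and 44 at 17 M.

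Log2 fold changes turned sign, Zbtb44 excepted, only in members that were not DE at 50 M: with equal totals Foxo3 (0.16), Klf9 (0.032), Ncoa2 (0.087), Smarca4 (0.13), Zfp451 (0.15), Zfp638 (0.15) and Znfx1 (0.11), with edgeR Foxo3 (0.012), Zfp451 (0.0048) and Zfp638 (0.0078), at 17 M Zbtb20 (-0.026), Zbtb46 (-0.056) and Zfp638 (0.018), and at 25 M Brd9 (-0.031), Foxo3 (0.0015), Smarca4 (0.025), Zbtb44 (-0.061) and Zfp451 (0.0498). Leaving out 1 library gave both signs for Foxo3 (-0.063 to 0.084), Smarca4 (-0.072 to 0.0051), Zfp451 (-0.046 to 0.011), Zfp638 (-0.056 to 0.0204) and Znfx1 (-0.13 to 0.023). The 9 ratios of related genes kept their direction at 25 M and 17 M, with pseudocounts of 0.5 and 5 and without each library in turn, the alternatives run for them. Groups of 3 libraries and, in SNT replicate 1, a library nearer to the naive group limit the precision, and fewer members were called at the lower depths.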
